A study of Mus musculus with 10 samples.

Results

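Gene expression in 2 liver tumours was set against that of unexposed liver, to find the differences from healthy tissue that held in both tumours. The tumour libraries, called tumour 1 and tumour 2, were each made from a single mouse kept for 24 weeks on Western diet and given carbon tetrachloride (CCl4). The labels give their source as hepatocellular carcinoma, the cancer of hepatocytes. CCl4 is a liver toxin that hepatocytes activate through the cytochrome P450 Cyp2e1. The unexposed livers were 2 pools of 4 mice each, on normal diet with the oil vehicle, taken at 12 and 24 weeks. These 4 libraries were chosen by their labels, out of 10 in the series. The other 6 were pools of 4 mice for normal diet with CCl4, Western diet with oil and Western diet with CCl4, each at 12 and 24 weeks. The sources used here do not give strain, sex or age, nor whether the tumours came from different mice. Tumour and control differed in diet, toxin and tissue at once, so these cannot be told apart in the comparison. The spread behind each test was that between tumours and between pools of 12 and 24 weeks, which is not a spread between animals of one condition.

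The adult hepatocyte makes plasma proteins, detoxifies drugs through cytochromes P450, converts cholesterol into bile acids and ammonia into urea, and divides its work between cells near the portal vein and cells near the central vein. Hepatocellular carcinomas keep part of this program, lose another part, and often switch on genes of the fetal liver. Their cells divide, while hepatocytes of a healthy adult liver rarely do.

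The libraries held 23206229 reads for tumour 1 and 29693666 for tumour 2, against 24975517 and 24082712 for the pools of 12 and 24 weeks. Values are normalised read counts, and differences are on the log2(value + 1) scale with the standard error of the fit, 2 tumours against 2 pools. That scale understates the change of low genes. Up to 3 reads may lie behind a value of 0, a floor for counting error alone. Albumin (Alb) took 10.4% and 9.59% of reads in the pools, 7.29% in tumour 1 and 17.7% in tumour 2. The 10 most abundant genes took 34.5% of reads in tumour 2 and 19.8% to 20.3% in the other 3 libraries. The label was checked on markers. Summed over 4 of 5 listed tumour markers, values were 3.37 and 3.71 in the pools, 222 in tumour 1 and 441 in tumour 2. The Western-diet CCl4 pools, which are not labelled as tumour, gave 165 and 28.7, so the sum is not particular to the tumours. In tumour 1 nearly all of that sum was the fetal RNA H19, and in tumour 2 it was mostly the glypican Gpc3. Markers of skeletal muscle and fat were at or under the floor in all 4 libraries for 4 of 5 genes each, and those of pancreatic acinar cells for 3 of 5. Intestinal markers summed to 51.6 and 60.1 in the pools and 150 and 145 in the tumours, with 3 of 5 above both pools in both tumours and 1 of 5 at the floor. These markers summed to 186 and 139 in the normal-diet CCl4 pools and 127 and 121 in the Western-diet CCl4 pools. They summed to 37.2 and 29.1 in the Western-diet oil pools. The higher sum is thus not particular to the tumours, and the part of these markers in the results was not tested. Globin genes were listed near 0 in every library and were not used. In bulk tissue, fewer cells of a type and less RNA per cell cannot be told apart.

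A gene was tested if its value reached at least 1 in 2 or more of the 10 libraries, which left 12648 of 24062. Genes that passed through the 2 tumours alone had to be higher there. A gene was called when its adjusted p lay under 0.05 (limma, Benjamini-Hochberg over all tested genes). Called genes numbered 2447, or 19.3% of those tested, with 1354 higher (10.7%) and 1093 lower (8.64%) in the tumours. For each gene the fit took 1 spread for all 5 groups. The tumours were further apart than the normal-diet oil pools (median absolute difference 0.42 against 0.192). With only the 4 compared libraries 539 genes were called, and with array weights 726. Both tumours lay outside the range of both pools on the same side for each of the 2447. Without any test, the same was true of 7034 genes, or 55.6%. A stricter rule asked that each tumour differ at least 2-fold from the nearer pool. It was met by 880 called genes (6.96%), 540 higher (4.27%) and 340 lower (2.69%). The median difference over all tested genes was 0.02. The count of calls was 722 and 709 without the 12-week or 24-week pool, 1586 and 1588 without the Western-diet oil pools of 12 or 24 weeks, and 3549 and 4615 without tumour 1 or tumour 2. List counts given below with a library left out stand against these totals, not against the 19.3%. In a fit with 1 tumour, the spread came from the other groups alone. Where leaving out 1 library ended the call of a gene named below, the adjusted p without it is given.

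**Figure D1:**
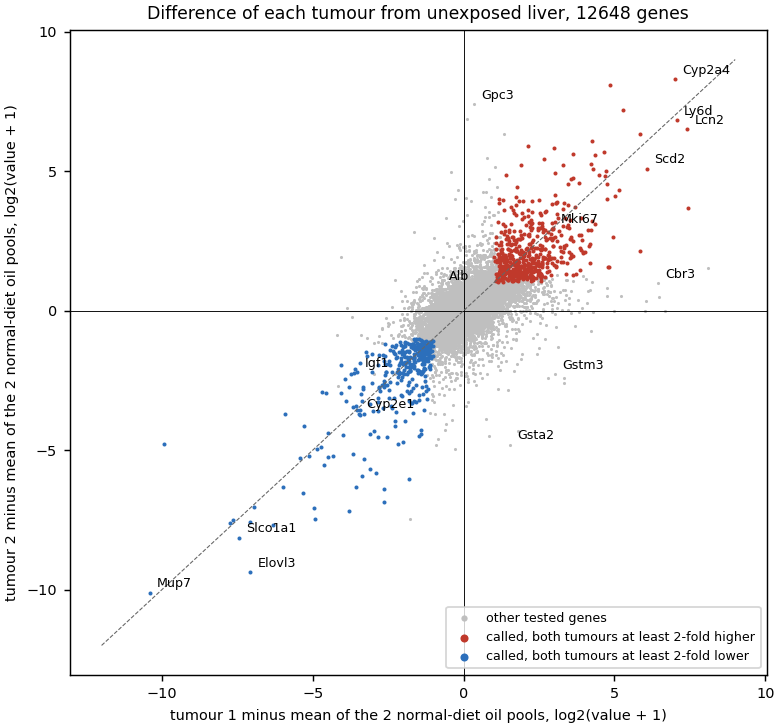
Difference of tumour 1 (horizontal) and tumour 2 (vertical) from the mean of the 2 normal-diet oil pools for 12648 tested genes, on the log2(value + 1) scale, with equal differences on the dashed line. Red points are the 540 called genes at least 2-fold higher in both tumours and blue points the 340 at least 2-fold lower, while Gpc3, Gstm3, Gsta2 and Cbr3 lie far from the line.

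Among the largest rises shared by both tumours were those of Scd2, Ly6d, Lcn2 and Apoa4. Scd2, a fatty acid desaturase that healthy adult liver uses little, read 9.45 and 9.93 in the pools, 722 in tumour 1 and 361 in tumour 2. The tumours were far above both pools, a rise of 5.58 ± 0.35 (limma adjusted p = 0.000158). Ly6d (chr15:74762056-74763620, mm10, minus strand), a small membrane-anchored surface protein, read 1.06 and 1.56 in the pools, 308 and 258 in the tumours. It rose by 6.94 ± 0.32 (adjusted p = 8.79e-05), and both tumours were alike. Lcn2, a secreted lipocalin that binds iron-carrying siderophores, read 4.13 and 12.6 in the pools and 1429 and 757 in the tumours, a rise of 6.96 ± 0.80. Apoa4, an apolipoprotein of triglyceride-rich particles, rose by 6.24 ± 0.56, from 91.2 and 119 to 4106 and 15367. The regulator of G-protein signalling Rgs16 rose by 6.09 ± 0.41, the sphingomyelinase Smpd3 by 4.69 ± 0.25 and the tetraspanin Cd63 by 4.76 ± 0.45. The oxysterol-binding protein Osbpl3 rose by 4.56 ± 0.41. These 8 genes kept their calls in each of the 21 alternatives tried. Not all of these rises were particular to the tumours. Apoa4 read 3307 and 5345 in the normal-diet CCl4 pools of 12 and 24 weeks. Against the Western-diet CCl4 pools, limma did not call Apoa4, Cd63 or Osbpl3 (adjusted p = 0.188, 0.178 and 0.189). It did call Scd2, Ly6d, Lcn2, Rgs16 and Smpd3, all higher in the tumours (adjusted p = 0.00614, 0.0192, 0.0460, 0.0422 and 0.00907). Lcn2 and Rgs16 thus lay near the threshold. The 21 alternatives above concern the comparison with unexposed liver only. The basement membrane gene Nid1, at 11.9 and 11.4 in the pools and 78.7 and 544 in the tumours, lost its call without the 12-week pool (adjusted p = 0.0597) or the 24-week pool (0.0636).

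Cyp2a4, a P450 of steroid metabolism, had the largest rise by the rule for named genes, 7.65 ± 0.76 (adjusted p = 0.000717). It read 1.29 and 0.0915 in the pools, on 29 and 2 reads, and 200 and 497 in the tumours. Its near-identical neighbour Cyp2a5 read 359 and 502 in the pools, 1171 in tumour 1 and 58.5 in tumour 2, and was not called (adjusted p = 0.696). Reads that fit both copies may have been split between them by the authors' counting, so the share of each is uncertain.

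The 3 largest falls by the rule for named genes were of Mup7, Elovl3 and Slco1a1, which male mouse liver expresses above female liver. Of 27 tested members of the male-biased list, 24 were called lower and 0 higher, 88.9% against 19.3% of all tested genes, with a median difference of -3.80 against 0.02. Without the 12-week or 24-week pool, 12 and 13 were called. The fatty acid elongase Elovl3 read 850 and 1010 in the pools, 5.86 in tumour 1 and 0.388 in tumour 2. It fell by 8.23 on the log2 scale (± 0.63, adjusted p = 0.000254). Slco1a1, a transporter that takes organic anions into hepatocytes, read 593 and 455 in the pools and 1.99 and 0.854 in the tumours, a difference of -7.79 ± 1.14. The major urinary proteins, pheromone carriers made by liver and excreted in urine, form a gene cluster on chromosome 4. Of 13 tested Mup genes, 11 were called lower, and 7 without either normal-diet pool. Mup14 read 443 and 956 in the pools and 3.79 and 2.45 in the tumours. Mup7 (chr4:60066469-60070475) fell from 1962 and 2233 to 0.547 and 0.893, but lost its call without the 12-week pool (adjusted p = 0.0567) or the 24-week pool (0.0618). The Mup genes are near copies of each other, so which of them changed is uncertain. Mup20 read 3330 and 4540 in the pools, 921 and 2671 in the tumours, and was not called (adjusted p = 0.0800). These falls were not particular to the tumours. In the Western-diet CCl4 pools of 12 and 24 weeks, Elovl3 already read 23.5 and 11.1, Slco1a1 39.3 and 7.53, and Mup14 35.1 and 12.6. No gene of the male-biased list was called between the tumours and those pools by limma or edgeR, while 12 had an unadjusted p under 0.05 in limma and DESeq2 called 7, all lower. In the female-biased list, 2 of 17 tested members were called higher and 5 lower, 41.2% in all, and the median difference was 0.15. Lower calls were 1 and 0 without the 12-week or 24-week pool, and higher calls 7 without tumour 1. The medians were -0.32 in tumour 1 and 0.79 in tumour 2.

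Some markers of the fetal liver and of liver carcinoma were higher in both tumours, while others, Afp and Gpc3 among them, were not called. Of 27 tested members, 12 were called higher and 0 lower, 44.4%, and all 12 met the 2-fold rule. The median difference was 2.32. Without either normal-diet pool, 9 were called, and without tumour 1 or tumour 2, 20 and 17. The list was drawn up with earlier results of these data known, and it holds Ly6d and Scd2, so its count is no independent evidence. H19, an imprinted RNA of fetal tissue, read 0.266 and 0.229 in the pools, 216 in tumour 1 and 15.1 in tumour 2. It rose by 5.56 ± 1.30 (adjusted p = 0.0209), a call lost without the 12-week pool (adjusted p = 0.105) or the 24-week pool (0.108). The steroid dehydrogenase Akr1c18 had 2 and 0 reads in the pools, 752 in tumour 1 and 7246 in tumour 2 (adjusted p = 0.00320). Sox4 and Sox9, transcription factors of progenitor and bile duct cells, rose by 2.77 ± 0.47 and 1.57 ± 0.29. Sox4 lost its call without the 24-week pool (adjusted p = 0.0597), and Sox9 without the 12-week pool (0.0548) or the 24-week pool (0.0671).

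Alpha-fetoprotein (Afp), the serum marker of this cancer, read 1.46 and 2.33 in the pools, 3.83 in tumour 1 and 54.1 in tumour 2 (adjusted p = 0.0928). Gpc3, a cell-surface proteoglycan of fetal liver, read 1.51 and 0.915 in the pools, 1.76 in tumour 1 and 371 in tumour 2 (adjusted p = 0.144). Both genes were high in tumour 2 and not in tumour 1. The fetal growth factor Igf2 stayed low, at 0.133 and 0.229 in the pools and 1.09 and 0.699 in the tumours (adjusted p = 0.274).

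Most tested genes of cell division were higher in both tumours. Of 42 tested members of the cell cycle and mitosis list, 30 were called higher and 0 lower, 71.4%, with medians of 1.92 in tumour 1 and 1.43 in tumour 2. Without the 12-week or 24-week pool 15 and 20 were called. Only 4 were called among genes reaching at least 10 in 2 libraries, a filter that members such as Hmmr and Plk1 did not meet. How many members met it is not given here. The proliferation marker Mki67 read 1.06 and 3.29 in the pools and 22.2 and 21.7 in the tumours, a rise of 2.95 ± 0.37 (limma adjusted p = 0.00189). Cyclin D1 (Ccnd1), which carries cells into the cycle, rose by 3.02 ± 0.49. It read 24.4 and 22.4 in the pools, 139 in tumour 1 and 277 in tumour 2. This rise was not particular to the tumours. Ccnd1 read 143 and 97.9 in the normal-diet CCl4 pools and 48.1 and 126 in the Western-diet CCl4 pools. Against the latter it was not called (limma adjusted p = 0.187). The mitotic kinase Plk1 rose by 2.64 ± 0.33 and the spindle-associated gene Hmmr by 2.88 ± 0.39. Of genes of DNA replication, the clamp Pcna read 24.5 and 24.8 in the pools and 27.3 and 18.9 in the tumours. The helicase subunit Mcm7 read 15.3 and 17.3 against 18.9 and 10.8. Neither was called (adjusted p = 0.70 and 0.664), and their tumour values lay on both sides of the pools.

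**Figure D2:**
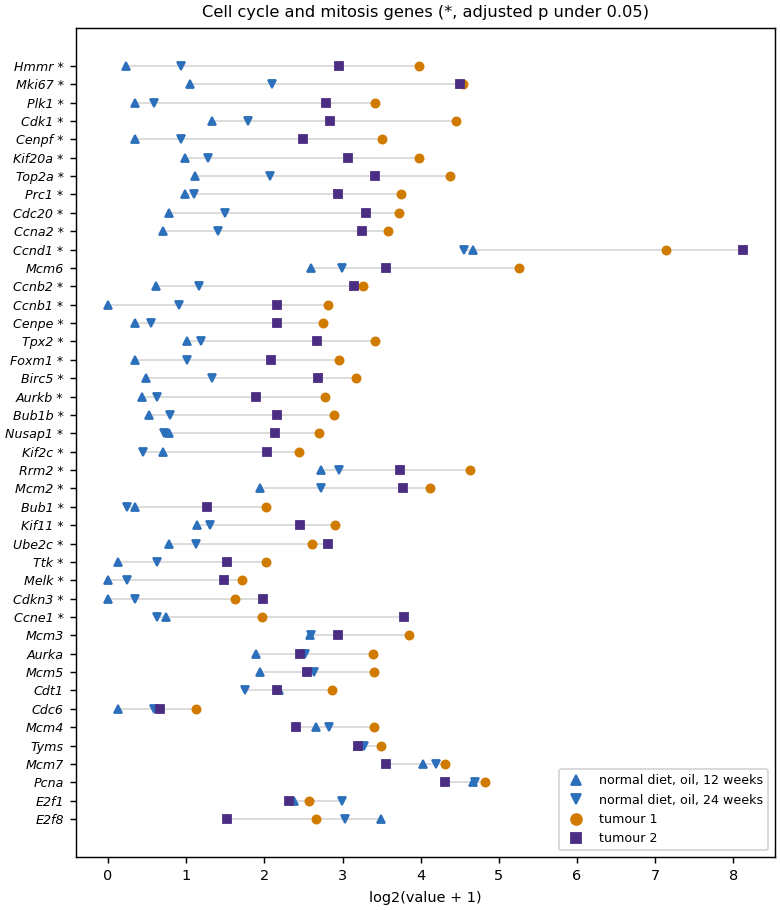
Values of the 42 tested cell cycle and mitosis genes in the 2 normal-diet oil pools (blue triangles) and the 2 tumours (circles and squares), on the log2(value + 1) scale, with called genes marked by an asterisk. The tumours lie right of the pools for mitotic genes such as Mki67 and Plk1, while Pcna, Mcm7 and E2f1 overlap or fall near them.

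Genes of mitosis are known to be controlled through a CHR element (TTTGAA) and CCAAT boxes close to their start sites, and these letters were looked for in RefSeq promoters. Each window ran from 250 bases before to 50 bases after the first listed start (GRCm38.p6, both strands). Of the 30 called members, 24 had a promoter in the table. TTTGAA was in 16 of these 24 windows (66.7%), CCAAT in 19 (79.2%) and both in 15 (62.5%). Among promoters of all 9574 matched tested genes, TTTGAA was in 11.9%, CCAAT in 38.6% and both in 4.93%. Of the 27025 promoters in the table, 18.1%, 37.9% and 7.12% held them. Among 11 uncalled members with a promoter, TTTGAA was in 2 and CCAAT in 7. A match describes the letters of a window and is not a site of binding. The 150 bases before the start of 4 called genes that hold both motifs show how the letters are placed, with CCAAT and TTTGAA, or their reverse complements, in capitals.
Mki67, chr7:135716380-135716529, minus strand: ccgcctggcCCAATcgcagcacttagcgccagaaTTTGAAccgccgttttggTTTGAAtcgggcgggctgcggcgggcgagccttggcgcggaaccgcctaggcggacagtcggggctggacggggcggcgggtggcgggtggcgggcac
Cdc20, chr4:118437344-118437493, minus strand: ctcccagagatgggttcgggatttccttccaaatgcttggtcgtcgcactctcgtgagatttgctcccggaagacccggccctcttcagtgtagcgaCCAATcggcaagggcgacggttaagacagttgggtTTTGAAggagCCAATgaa
Top2a, chr11:99024190-99024339, minus strand: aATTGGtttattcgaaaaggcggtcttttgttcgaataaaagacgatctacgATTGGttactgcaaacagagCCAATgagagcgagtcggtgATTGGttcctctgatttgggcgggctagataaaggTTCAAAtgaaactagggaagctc
Cdk1, chr10:69352913-69353062, minus strand: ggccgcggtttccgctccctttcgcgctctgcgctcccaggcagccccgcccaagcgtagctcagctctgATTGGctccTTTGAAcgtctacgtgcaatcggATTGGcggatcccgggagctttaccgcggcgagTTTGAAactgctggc
In these, the TTTGAA nearest to the start begins 98 bases before it in Mki67, 18 in Cdc20, 23 in Top2a and 15 in Cdk1. The last 3 genes were chosen after their values were seen. Cdc20, an activator of the anaphase-promoting complex, read 0.710 and 1.83 in the pools and 12.2 and 8.89 in the tumours. The topoisomerase Top2a read 1.15 and 3.20 against 19.7 and 9.63, and the mitotic kinase Cdk1 1.51 and 2.47 against 20.9 and 6.17. All 3 were called (adjusted p = 0.00180, 0.0103 and 0.0162). Without the 12-week pool Top2a and Cdk1 were not (0.0807 and 0.110), nor Cdk1 without the 24-week pool (0.0665).

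Targets of p53, the damage-response factor, were called higher in 9 of 20 tested members and lower in 0 (45.0%, median 0.74), or in 4 without either normal-diet pool. Btg2, an antiproliferative factor, read 15.6 and 22.4 in the pools and 118 and 172 in the tumours, a rise of 2.87 ± 0.34. Phlda3, an inhibitor of Akt signalling, rose by 3.30 ± 0.48, with 1.69 and 1.10 in the pools, 42.7 in tumour 1 and 11.5 in tumour 2. The death receptor Tnfrsf10b rose by 2.30 ± 0.32. Perp and Trp53inp1 were not called, at 115 and 133, and 98.3 and 146, in the tumours, against 104 and 120, and 145 and 135, in the pools.

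Many cytochromes P450 of families 1 to 3, which oxidise drugs and steroids, were lower in both tumours. Of 36 tested members, 21 were called lower and 2 higher, 63.9%, with a median of -1.31. Without the 12-week or 24-week pool, 14 and 13 were called lower. Cyp2e1 (chr7:140763739-140774987), which oxidises ethanol and activates CCl4, read 6614 and 5765 in the pools and 556 and 478 in the tumours. The tumours were alike and far under both pools, a difference of -3.58 ± 0.34 (limma adjusted p = 0.000602). Cyp1a2, which oxidises caffeine, read 803 and 655 in the pools, 68.7 in tumour 1 and 11 in tumour 2. Several of the falls lay in the Cyp2c cluster of chromosome 19, whose genes act on drugs and fatty acids. Cyp2c50 (chr19:40089688-40113950) fell from 874 and 836 to 12.6 and 9.78, a difference of -6.14 ± 0.43. Its neighbours Cyp2c54, Cyp2c29 and Cyp2c37 differed by -7.00 ± 0.79, -6.20 ± 0.67 and -5.36 ± 0.42. Cyp2c paralogs are close in sequence, and the fall cannot be assigned to single members with certainty. Cyp2d26 and Cyp2a12 were not called. Cyp2d26 read 1007 and 913 in the pools and 577 and 1322 in the tumours, and Cyp2a12 643 and 585 against 292 and 605, so that tumours and pools overlapped.

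Most tested genes of bile acid synthesis and transport were lower in both tumours. Of 27 tested genes of bile acid synthesis and transport, 17 were called lower and 1 higher, 66.7%, with a median of -1.19, or 10 lower without either normal-diet pool. Cyp7a1 (chr4:6265612-6275633), the rate-limiting enzyme of the classical pathway, read 49.8 and 131 in the pools, 2.31 in tumour 1 and 0.776 in tumour 2. It fell by 5.08 on the log2 scale (± 0.52, adjusted p = 0.000786). Cyp8b1, which makes the 12-hydroxylated bile acids, read 410 and 473 in the pools and 13.1 and 2.25 in the tumours, a difference of -6.03 ± 0.60. Cyp7b1, of the alternative pathway, read 356 and 379 against 25.5 and 1.51. The export pumps Abcc2 and Abcc3 were not called, at 279 and 447, and 594 and 246, in the tumours.

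Most tested genes of hepatocytes around the central vein were lower in both tumours. Of 23 tested members 14 were called lower and 0 higher, 60.9%, and the medians were -1.58 in tumour 1 and -2.84 in tumour 2. Without the 12-week or 24-week pool, 10 and 12 were called, and without tumour 2, 4 were called higher. The glutamate transporter Slc1a2 read 140 and 137 in the pools and 2.46 and 0.505 in the tumours, a difference of -5.93 ± 0.39. Ornithine aminotransferase (Oat) read 1024 and 1187 against 54.0 and 28.9. Both genes were already lower on Western diet. In the Western-diet oil pools Slc1a2 read 30.2 and 42.4, and Oat 217 and 307. In the Western-diet CCl4 pools they read 14.9 and 22.5, and 65.6 and 175. Against these CCl4 pools limma called Slc1a2 lower in the tumours (adjusted p = 0.00720) but not Oat (0.194). Glutamine synthetase (Glul), the marker of the innermost row of cells and a beta-catenin target, read 866 and 809 in the pools, 530 in tumour 1 and 62.7 in tumour 2. It was not called (adjusted p = 0.0782), though both tumours were under both pools. Of 19 tested beta-catenin targets, 8 were called lower and 1 higher (47.4%), and the latter was Ccnd1. Without the 12-week or 24-week pool 4 and 6 were called lower.

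Periportal genes and genes of the urea cycle were called lower in 10 of 24 tested members and higher in 1, 45.8%, with a median of -0.73. Only 2 and 1 were called lower without the 12-week or 24-week pool, and 6 without either Western-diet oil pool. Pck1, which controls gluconeogenesis, read 2483 and 2995 in the pools and 390 and 908 in the tumours, a difference of -2.19 ± 0.41 (adjusted p = 0.00895, and 0.0554 and 0.0755 without the 12-week or 24-week pool). Hepatocyte identity was followed in a list of its own. Of 32 genes of secreted proteins, transcription factors and enzymes such as Tat and G6pc, 6 were called lower and 0 higher. That was 18.8% lower, against 8.64% of all tested genes. The medians were -0.80 in tumour 1 and -0.11 in tumour 2. Without tumour 2, 17 were called lower, and 1 without either normal-diet pool. Albumin read 114851 and 105693 in the pools, 66122 in tumour 1 and 203789 in tumour 2, on either side of the pools. The tyrosine-degrading enzyme Tat read 1910 and 2849 against 374 and 668, a difference of -2.22 ± 0.34.

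**Figure D3:**
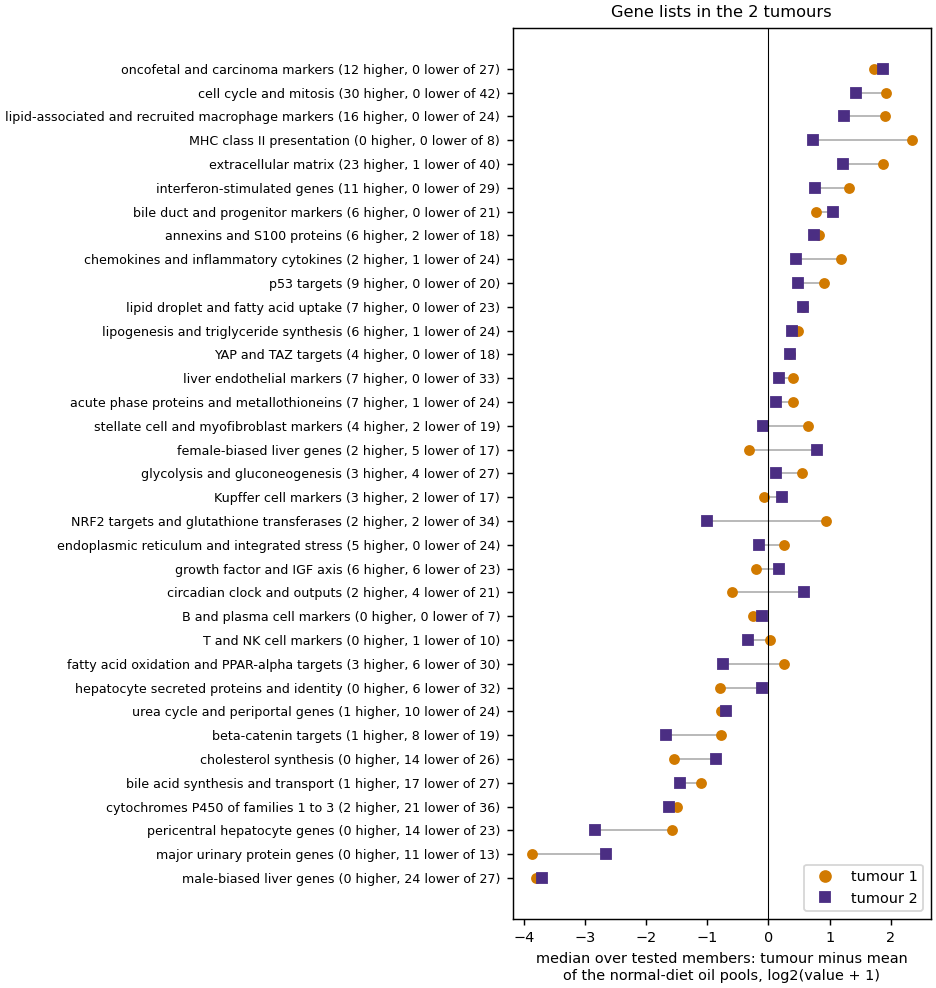
Median difference of tumour 1 (circles) and tumour 2 (squares) from the mean of the 2 normal-diet oil pools, on the log2(value + 1) scale, for each list with 7 or more tested members; counts beside the names are genes called higher and lower. The tumours fall together for male-biased genes (-3.80 and -3.70) and far apart for NRF2 targets (0.94 and -1.01).

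Lipid synthesis split into its branches. Fatty acid synthase (Fasn) read 512 and 416 in the pools and 3218 and 1843 in the tumours, a rise of 2.40 ± 0.31 (limma adjusted p = 0.00209). The lipid droplet hydrolase Pnpla3 read 1.06 and 1.10 against 8.21 and 20.9, a rise of 2.77 ± 0.39. Acss2, which makes acetyl-CoA from acetate, moved the other way, from 317 and 325 to 85.0 and 78.5 (-1.96 ± 0.19). In the list of lipogenesis and triglyceride synthesis 6 of 24 tested members were called higher and 1 lower (29.2%, median 0.46), or 4 higher without either normal-diet pool and 10 without tumour 2, and 5 lower without tumour 1. The desaturase Scd1 was not called, at 12830 and 12736 in the pools and 27243 and 18017 in the tumours. Among genes of lipid droplets and fatty acid uptake, 7 of 23 were called higher and 0 lower (30.4%, median 0.49), while 4 were called lower without tumour 2. Lipoprotein lipase (Lpl) read 50.4 and 41.5 in the pools and 554 and 279 in the tumours, a rise of 3.08 ± 0.37. The droplet protein Cidec rose by 4.18 ± 0.78, a call lost without the 12-week pool (adjusted p = 0.0742). Cidec read 48.9 and 109 in the tumours, under its values of 154 and 206 in the normal-diet CCl4 pools. The fatty acid carrier Fabp1 was not called, at 3475 and 3331 in the normal-diet oil pools against 981 and 2204 in the tumours.

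Many tested genes of cholesterol synthesis were lower in both tumours. Of 26 tested members 14 were called lower and 0 higher, 53.8%, with medians of -1.55 in tumour 1 and -0.86 in tumour 2. Without either normal-diet pool 11 were called, and without tumour 2, 24. The isoprenoid isomerase Idi1 read 76.1 and 97.8 in the pools and 5.24 and 12.1 in the tumours, a difference of -3.27 ± 0.34. The sterol oxidase Msmo1 read 254 and 301 against 45.7 and 59.2, a difference of -2.39 ± 0.23. Sc5d, of the late steps, was not called, at 718 and 700 in the pools and 259 and 725 in the tumours. Promoters of this pathway are known to pair sterol-responsive sites with CCAAT boxes. CCAAT was in the window of 11 of 12 called members with a promoter (91.7%), against 38.6% of promoters of tested genes, and in 5 of 6 uncalled ones. The 150 bases before the start of 3 called genes show these letters in capitals.
Ebp, chrX:8193513-8193662, minus strand: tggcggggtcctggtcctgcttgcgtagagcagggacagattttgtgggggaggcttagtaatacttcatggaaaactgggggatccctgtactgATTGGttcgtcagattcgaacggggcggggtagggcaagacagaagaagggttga
Hmgcs1, chr13:119690201-119690350, plus strand: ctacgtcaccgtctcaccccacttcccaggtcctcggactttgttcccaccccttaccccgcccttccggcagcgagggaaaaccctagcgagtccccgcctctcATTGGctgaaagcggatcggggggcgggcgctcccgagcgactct
Pmvk, chr3:89454391-89454540, plus strand: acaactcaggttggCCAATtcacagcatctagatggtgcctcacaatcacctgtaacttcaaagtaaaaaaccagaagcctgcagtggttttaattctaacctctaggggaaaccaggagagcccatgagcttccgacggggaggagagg
The box lies 55 bases before the start in Ebp, 45 in Hmgcs1 and 136 in Pmvk. These 3 genes were chosen after their values were seen. The sterol isomerase Ebp read 290 and 329 in the pools and 61.5 and 107 in the tumours. Hmgcs1, which makes HMG-CoA for the pathway, read 626 and 584 against 218 and 183, and phosphomevalonate kinase Pmvk 80.1 and 92.1 against 27.8 and 33.5. Each was called (adjusted p = 0.00264, 0.00209 and 0.00141), whichever library was left out.

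Some genes of the growth hormone and IGF axis were lower in both tumours, and others on that list were higher. Igf1 (chr10:87858265-87937042), the growth factor that liver releases into blood, read 582 and 598 in the pools, 50.1 in tumour 1 and 127 in tumour 2. It fell by 2.87 on the log2 scale (± 0.38, adjusted p = 0.00209). The prolactin receptor Prlr read 108 and 97.1 against 11.7 and 16, a difference of -2.81 ± 0.22. Igfals, which holds IGF in a complex in plasma, differed by -2.95 ± 0.49, a call lost without the 12-week pool (adjusted p = 0.0512). In the list of growth factors and the IGF axis, 6 of 23 tested members were called lower and 6 higher, 52.2%, with a median of -0.10. Without the 12-week or 24-week pool, 3 and 5 were called lower and 2 and 1 higher. The binding proteins Igfbp2 and Igfbp4 were not called, at 277 and 474, and 933 and 1400, in the tumours. The fasting hormone Fgf21 read 2.35 and 0.640 in the pools, 72.0 in tumour 1 and 13.6 in tumour 2, and lost its call without the 12-week pool (adjusted p = 0.0531) or the 24-week pool (0.103).

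Psat1, of serine synthesis, read 0.621 and 1.01 in the pools and 14.4 and 25.6 in the tumours, a rise of 3.49 ± 0.31 (adjusted p = 0.000530). Trib3, a pseudokinase induced by ATF4, rose by 3.24 ± 0.44, from 6.52 and 4.48 to 35.5 and 100. The chaperones Hspa5 and Hsp90b1 were not called, and the pools and tumours overlapped in Hspa5, at 1150 and 1860 against 1719 and 1025. In all, 5 of 24 tested genes of endoplasmic reticulum and integrated stress were called higher (20.8%, against 10.7% of all tested genes) and 0 lower. Their median was -0.05, and fewer were called higher without either normal-diet pool. Of acute phase proteins and metallothioneins, 7 of 24 were called higher and 1 lower (33.3%), or 2 and 6 higher without the 12-week or 24-week pool and 11 without tumour 2. Called lower were 4 without tumour 1 and 8 without tumour 2. The interleukin 1 antagonist Il1rn read 1.77 and 1.60 in the pools and 70.8 and 61.5 in the tumours, a rise of 4.64 ± 0.31 (adjusted p = 0.000158). Haptoglobin (Hp) was not called, at 2987 and 4261 against 9685 and 3872. Mt1 and Mt2, metallothioneins that bind zinc, rose by 2.42 ± 0.39 and 2.95 ± 0.52, calls lost without the 12-week pool (adjusted p = 0.0514 and 0.0613). Of annexins and S100 proteins, 6 of 18 were called higher and 2 lower (44.4%), or 2 higher without either normal-diet pool. The membrane-binding Anxa2 read 11.2 and 13.5 in the pools and 134 and 191 in the tumours, and S100a11 2.57 and 3.34 against 27.4 and 23.2.

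Many matrix genes, which fibrotic liver makes through stellate cells, were higher in both tumours. Of 40 tested members 23 were called higher and 1 lower, 60.0%, with a median of 1.48. Only 8 and 6 were called higher without the 12-week or 24-week pool. The type I collagen genes Col1a1 and Col1a2 rose by 3.74 ± 0.44 and 3.11 ± 0.38. Col1a1 read 4.92 and 5.90 in the pools, 122 in tumour 1 and 57.8 in tumour 2. Summed over 5 stellate cell markers, values were 62.0 and 56.4 in the pools and 137 and 112 in the tumours, with 3 of the 5 above both pools in both tumours and none of the 5 at the floor. In the longer stellate and myofibroblast list 4 of 19 tested members were called higher and 2 lower (31.6%), or 0 and 1 higher without the 12-week or 24-week pool, 5 lower without tumour 1 and 7 higher without tumour 2. The medians were 0.65 in tumour 1 and -0.09 in tumour 2. The contractile actin Acta2 read 2.0 and 2.29 in the pools, 44.9 in tumour 1 and 7.65 in tumour 2, and lost its call without the 12-week pool (adjusted p = 0.119) or the 24-week pool (0.107). The part of stellate cell numbers in the matrix values was not tested.

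Of markers of lipid-associated and recruited macrophages, 16 of 24 tested members were called higher and 0 lower, 66.7%, with a median of 1.64, or 4 and 5 higher without the 12-week or 24-week pool and 9 without either Western-diet oil pool. Gpnmb, a glycoprotein of lipid-laden macrophages, read 0.799 and 0.823 in the pools and 15.3 and 12.0 in the tumours, a rise of 3.01 ± 0.41 (adjusted p = 0.00236). Cd63 and Lpl, described above, are in the same list. The receptor Trem2 rose by 1.53 ± 0.46, from 0.799 and 1.28 to 7.16 and 3.22. Its call was lost without either normal-diet pool (adjusted p = 0.206 and 0.139), without tumour 1 (0.122), without either Western-diet oil pool (0.0796 and 0.0795) and without either Western-diet CCl4 pool (0.0652 and 0.0650). Summed over 4 of 5 listed macrophage markers, values were 126 and 198 in the pools and 273 and 213 in the tumours. Adgre1, present under its older symbol Emr1, was left out of that sum. The part of macrophage numbers was not tested. Resident macrophages, the Kupffer cells, gave a mixed list, with 3 of 17 tested members called higher and 2 lower (29.4%), and 0 higher and 1 lower without either normal-diet pool. Higher calls were 1 when any 1 Western-diet pool or tumour 1 was left out and 5 without tumour 2, and lower calls 4 without tumour 2 or either Western-diet CCl4 pool. C6, a complement component on that list, read 354 and 368 against 87.2 and 75.3, a difference of -2.14 ± 0.24. Hepatocytes also express C6, so it is no defining marker of these cells.

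Interferon-stimulated genes were called higher in 11 of 29 tested members and lower in 0, 37.9%, with a median of 1.10, or in 6 and 2 without the 12-week or 24-week pool and in 22 without tumour 2. Ifit2, which blocks translation of viral RNA, read 2.62 and 2.93 in the pools and 12.8 and 21.1 in the tumours, a rise of 2.21 ± 0.29. Oas1a, a sensor enzyme of double-stranded RNA, rose by 2.06 ± 0.27. Genes of antigen presentation by MHC class II were high in tumour 1 and not called. None of 8 tested members passed in limma, with 6 at an unadjusted p under 0.05, while edgeR called 4 and DESeq2 7. Without tumour 2 limma called 7, and the medians were 2.34 in tumour 1 and 0.72 in tumour 2. The invariant chain Cd74 read 89.2 and 105 in the pools, 949 in tumour 1 and 161 in tumour 2 (adjusted p = 0.0800). Of 24 tested chemokines and cytokines 2 were called higher and 1 lower (12.5%), or 0 and 1 higher without the 12-week or 24-week pool, 1 without either Western-diet oil pool and 15 without tumour 2. The one lower was Cxcl12, which retains blood cells in tissues, at 353 and 346 in the pools and 121 and 115 in the tumours, a difference of -1.56 ± 0.14 (adjusted p = 0.000567). Few lymphocyte markers were called. Of 10 tested T and NK markers, limma called 0 higher and 1 lower, edgeR called 1 higher, and DESeq2 called 1 in each direction. Of 7 B and plasma cell markers 0 were called by limma or edgeR, with 0 at an unadjusted p under 0.05 in limma, and 1 lower by DESeq2. Summed over 5 T and NK markers, values were 2.04 and 2.47 in the pools and 3.32 and 1.94 in the tumours.

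Endothelial markers were called higher in 7 of 33 tested members (21.2%, against 10.7% of all tested genes) and lower in 0. No higher call remained without either normal-diet pool. Fewer were called higher without either Western-diet oil pool or without tumour 1, and more without tumour 2. Bile duct and progenitor markers were called higher in 6 of 21 (28.6%, median 1.06), in 1 and 0 without the 12-week or 24-week pool and 10 without tumour 1. Osteopontin (Spp1), a secreted protein of duct cells and macrophages, read 49.9 and 37.3 in the pools and 357 and 772 in the tumours. Its rise of 3.58 ± 0.67 lost the call without the 12-week pool (adjusted p = 0.0533) or the 24-week pool (0.0724). YAP and TAZ targets were called higher in 4 of 18 (22.2%), in 1 and 0 without the 12-week or 24-week pool and in 2 without either Western-diet oil pool. Of genes of fatty acid oxidation and PPAR-alpha, 3 of 30 were called higher and 6 lower (30%, median -0.27), or 2 and 1 without either normal-diet pool, with 17 lower without tumour 1 and 9 higher without tumour 2. The acyl-CoA thioesterase Acot1 fell from 27.1 and 23.4 to 7.19 and 2.79 (-2.23 ± 0.36). In glycolysis and gluconeogenesis, 3 of 27 were called higher and 4 lower (25.9%), or 1 and 0 without either normal-diet pool, with 8 lower without tumour 1 and 9 higher without tumour 2. The phosphofructokinase Pfkp rose by 2.25 ± 0.28, from 2.88 and 3.20 to 24.2 and 13.7. Among clock genes and outputs, 2 of 21 were called higher and 4 lower (28.6%), or 0 and 1 without the 12-week pool and 1 and 1 without the 24-week pool. Without tumour 1, 9 were called higher, without tumour 2, 8 lower, and the medians were -0.59 in tumour 1 and 0.58 in tumour 2. Clock itself read 88.6 and 69.3 in the pools and 37.3 and 33.3 in the tumours (-1.13 ± 0.18).

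The tumour mice had received Western diet and CCl4, so tumour levels were also set against the Western-diet CCl4 pools of 12 and 24 weeks in the same fit. This comparison shares the tumours with the first. It called 388 of 12648 genes (3.07%), 193 higher (1.53%) and 195 lower (1.54%). Of the 540 genes at least 2-fold higher in both tumours than in unexposed liver, 124 were also called higher than in the exposed pools and 1 lower. Of the 340 lower ones, 113 were called lower and 0 higher. The count of 388 fell to 25 without the 12-week Western-diet CCl4 pool and was 248 without the 24-week one. It was 139 without either Western-diet oil pool, 193 and 196 without the 12-week or 24-week normal-diet oil pool, 250 without the 12-week normal-diet CCl4 pool, and 1984 and 2269 without tumour 1 or tumour 2.

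Cyp7a1 read 93.1 and 86.6 in the exposed pools and 2.31 and 0.776 in the tumours, a difference of -5.23 ± 0.52 (limma adjusted p = 0.00406). Cyp2c50 read 287 and 118 in the exposed pools, and differed by -3.93 ± 0.43 (adjusted p = 0.00553). These 2 genes kept their calls in all 20 alternatives. Cyp2e1, at 5042 and 4067 in the exposed pools, differed by -3.13 ± 0.34 (adjusted p = 0.00513). Scd2, at 47.9 and 88.8, was 2.95 ± 0.35 higher in the tumours, and Psat1, at 1.77 and 3.22, 2.57 ± 0.31 higher. Cxcl12, at 264 and 285, differed by -1.21 ± 0.14. Without the 12-week Western-diet CCl4 pool these 4 lost their calls (adjusted p = 0.0508 for Cyp2e1, 0.0559 for Scd2, 0.0598 for Psat1 and 0.0559 for Cxcl12), and with every other alternative they kept them. Ly6d, at 51.3 and 106, was 1.92 ± 0.32 higher in the tumours (adjusted p = 0.0192) and Igf1, at 517 and 378, differed by -2.45 ± 0.37 (adjusted p = 0.0158). Both also lost the call without the 12-week Western-diet CCl4 pool (0.0995 and 0.123). Gpnmb went against its direction from healthy liver. It read 121 and 120 in the exposed pools, above both tumours, a difference of -3.06 ± 0.41 (adjusted p = 0.00909, and 0.0844 without the 12-week Western-diet CCl4 pool).

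**Figure D4:**
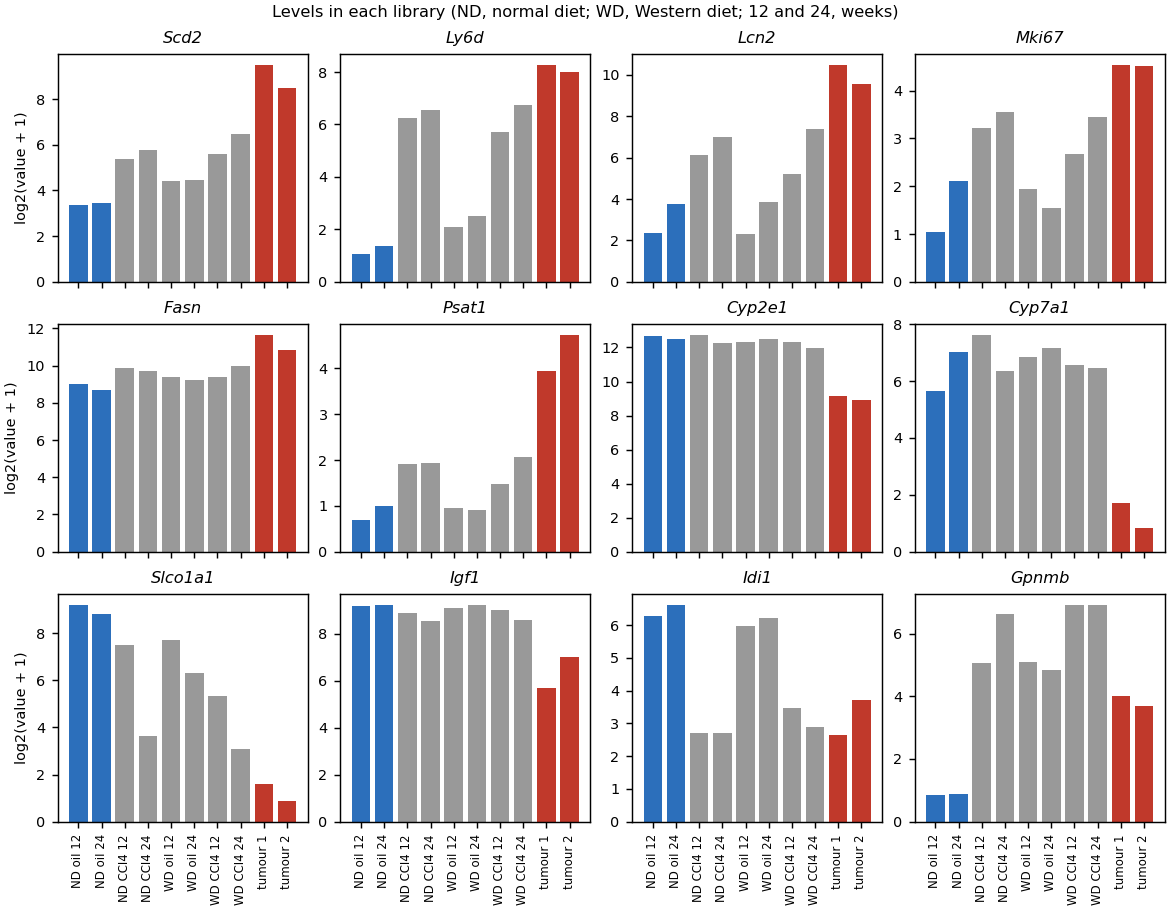
Level of 12 genes in each of the 10 libraries, on the log2(value + 1) scale, with the normal-diet oil pools in blue, the other liver pools in grey and the tumours in red (ND, normal diet; WD, Western diet; 12 and 24, weeks). Cyp7a1, Cyp2e1 and Igf1 are low in the tumours alone, Slco1a1 and Idi1 are low in exposed pools as well, and Gpnmb is higher in exposed pools than in the tumours.

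Other genes that differed between tumours and healthy liver were not called between tumours and exposed pools. Idi1 read 10.1 and 6.38 there and differed from the tumours by -0.00 ± 0.34 (adjusted p = 0.998). No cholesterol synthesis gene was called by limma or edgeR, while 9 had an unadjusted p under 0.05 in limma, 8 of them higher in the tumours, and DESeq2 called 5, all higher. The median of the list against the exposed pools was 0.35, opposite in sign to that against healthy liver. Col1a1 read 86.0 and 196 in the exposed pools (difference -0.62 ± 0.44, adjusted p = 0.48), Mki67 5.38 and 9.91 (1.46 ± 0.37, adjusted p = 0.0764) and H19 139 and 18. A p that misses the threshold does not show that levels were equal. Lists share members, so their counts overlap. Cyp2c50 is in the pericentral and P450 lists, and Cyp7a1 in the pericentral and bile acid lists. By list, 8 of 23 pericentral, 8 of 36 P450, 6 of 27 bile acid, 5 of 30 fatty acid oxidation and 5 of 17 female-biased genes were called lower than in the exposed pools, against 1.54% of all tested genes. Without the 12-week Western-diet CCl4 pool these counts were 3, 1, 2, 0 and 1. Higher than in the exposed pools were 7 of 27 of the oncofetal list, 6 of 42 of the cell cycle list, 4 of 24 of lipogenesis and 4 of 24 of the stress list, against 1.53%. Each of these 4 counts fell when any 1 liver pool was left out, and no such call remained without the 12-week Western-diet CCl4 pool. The counts of lower genes above also fell without either normal-diet oil pool or either Western-diet oil pool.

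The 2 tumours differed from each other more than the pools did. The median absolute difference between tumours was 0.42, against 0.192 between the normal-diet oil pools and 0.205 between the Western-diet CCl4 pools. They were at least 2-fold apart in 1816 genes (14.4%), against 87 genes between the normal-diet oil pools. With 1 library each, these differences have no test. Pools average over 4 mice and the tumours do not. In 2455 of the 12648 tested genes the tumours lay on opposite sides of both pools. Both lay on the same side of both pools in 7034 (55.6%). In 32 of the 2455 genes each tumour was at least 2-fold away from the nearer pool.

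Targets of NRF2, the sensor of electrophile stress, and glutathione transferases, which conjugate toxic compounds, had the widest gap between tumours among the 37 lists. The median difference from the pools was 0.94 in tumour 1 and -1.01 in tumour 2. Of 34 tested members only 2 were called higher and 2 lower (11.8%), and 0 without either normal-diet pool. Without tumour 2, 20 were called higher and 2 lower, and without tumour 1, 4 higher and 21 lower. Gstm1 read 2473 and 2401 in the pools, 9298 in tumour 1 and 837 in tumour 2. Gstm3 read 126 and 164, against 1167 and 28.8. Gsta2 read 38.6 and 46.5, against 125 and 0.543. Thus all 3 transferases were high in tumour 1 and low in tumour 2. The Gstm genes of chromosome 3 are close paralogs, so reads may have been split among them. The quinone reductase Nqo1, the cystine carrier Slc7a11 and the carbonyl reductase Cbr3 were chosen after their values were seen. Nqo1 read 10.2 and 10.8 in the pools, 148 in tumour 1 and 6.87 in tumour 2. Cbr3 read 1.06 and 1.33, against 190 and 3.34. Slc7a11 had values of 0 and 0.0915 in the pools, 91.8 in tumour 1 and 0.466 in tumour 2. In these 3 genes tumour 1 was far above every other value, and none of them was called.

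Among the genes chosen as highest in tumour 1 over tumour 2 were others of drug handling. The glucuronosyltransferase Ugt1a9 read 41.3 and 31.2 in the pools, 128 in tumour 1 and 0.854 in tumour 2, and the carboxylesterase Ces1g 312 and 275, against 487 and 18.8. The acute phase protein Orm2 read 9.89 and 24.6 in the pools, 314 in tumour 1 and 9.01 in tumour 2. Higher in tumour 2 were Gpc3, the clock output factor Dbp, at 1.46 and 2.10 in the pools, 1.06 in tumour 1 and 85.3 in tumour 2, and the steroid hydroxylase Cyp17a1, at 7.36 and 13.9, 8.76 and 220. The growth factor receptor Fgfr2 read 49.7 and 29.6 in the pools, 25.6 in tumour 1 and 210 in tumour 2. The iron hormone hepcidin (Hamp) read 327 and 438, against 19.6 and 207, so both tumours were under both pools, by different amounts (adjusted p = 0.0630).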

How the data were processed

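Poly-A selected RNA from flash-frozen liver or tumour was sequenced. Per the submitters' processing notes, reads were aligned with STAR to mm10. The sources used here name no counter, annotation, scaling or strand setting, so overlapping genes cannot be told apart. In the table the authors deposited, values are a normalised signal, with 24062 genes and 10 libraries. Whole reads were recovered from it (100.0% of values within 0.01 reads), with scaling factors of 0.868 to 1.102 in the 4 libraries compared and totals of 23206229 to 30137802 reads over all 10. Samples were grouped by the labels, and 12-week and 24-week pools of a group were its repeats.

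From the deposited signal, log2(value + 1) was fitted in R 4.3.3 by limma 3.58.1, using lmFit and a two-sided eBayes test with a trend, and 1 mean for each of 5 groups over all 10 libraries and 5 residual degrees of freedom. Tumours were compared with normal-diet oil pools and with Western-diet CCl4 pools. The fit was also run on simulated data in which tumours varied like the pools. That run cannot speak for the wider spread between the real tumours. Alternatives tried were no filter, a filter at 10, a pseudocount of 0.1, quantile and median-ratio scaling, no trend, a duration term, only the 4 libraries, array weights, DESeq2 1.42.0 or edgeR 4.0.16 fitted to those recovered reads, and leaving out each library. A library left out leaves a lone one in its group, assumed to vary like the others.

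The 37 gene lists (935 entries, 926 in the table, 4 by an older symbol, 9 not matched, 837 tested) and the genes to follow were chosen with earlier results of these data known. Named genes were the 12 largest rises and 12 largest falls among called genes held in both tumours with a mean at or above the median, and per list up to 4 called members and 2 uncalled ones of the largest mean. A few genes were always followed, and the 8 highest in each tumour over the other were added. Not all are reported here. Gene positions come from GENCODE M21 and promoters from RefSeq.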

Additional observations from a re-analysis of the deposited data

How the results depend on the processing

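Counts of called genes depended on the fit. Of 123 named called genes, 55 kept their call in all 21 alternatives, 61 kept it without each of the 4 compared libraries, and 0 reversed. Of 87 named uncalled genes, 57 were called in at least 1 alternative. Called genes (2447, with 1354 higher and 1093 lower) ranged over left-out libraries from 709 to 4615, higher ones from 397 to 2448 and lower ones from 296 to 2167. Over the same left-out libraries, genes at least 2-fold higher (540 in both tumours) ranged from 362 to 1371, and lower ones (340) from 250 to 723. The high ends, 1371 without tumour 2 and 723 without tumour 1, rest on the remaining tumour alone and are not counts for both. The low ends, 362 and 250, rest on 1 normal-diet oil pool, so these ranges mix different rules. Calls against Western-diet CCl4 pools (388) ranged from 25 to 2269. With only the 4 libraries there were 539 calls, 313 higher and 226 lower, and 312 and 226 at 2-fold. Array weights gave 726, 413 higher and 313 lower, with 347 at 2-fold higher and 49 against the CCl4 pools. A duration term gave 1347, 767 higher and 580 lower, with 123 against the CCl4 pools. The filter at 10 left 867 higher and 327 at 2-fold higher, with fewer genes tested. DESeq2 gave 2047 higher and 1144 against the CCl4 pools. Apart from the smaller set of genes or samples, the cause was not tested. The other alternatives (a pseudocount of 0.1, no filter, quantile or median-ratio scaling, no trend and edgeR) kept these 6 counts within 1.5 times. Genes with the tumours on opposite sides changed sign with the tumour left out. Without tumour 1 and without tumour 2 in turn, differences were -1.54 and 1.93 for Gstm1, -2.28 and 3.02 for Gstm3, -4.81 and 1.54 for Gsta2, and -4.32 and 1.81 for Ugt1a9. They were -1.41 and 0.63 for Aldh3a2, 1.34 and -1.31 for Tef, -3.89 and 0.73 for Ces1g, and -2.84 and 1.46 for Cyp2a5. No paired analysis was possible because replicate numbers mark weeks in the pools and a plain count in the tumours. Depth limits genes near the floor of 3 reads.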

Other observations

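Several genes outside the lists were also higher in both tumours, and they were chosen after their values were seen. The lysoplasmalogenase Tmem86a had values of 5.99 and 7.64 in the pools of unexposed liver, 83.6 in tumour 1 and 178 in tumour 2. The early response factor Egr1 read 20.8 and 12.6 in the pools and 82.4 and 260 in the tumours. The phosphatidylserine-binding protein Mfge8 read 12.5 and 13.5 in the pools and 158 and 81.3 in the tumours, and the zinc importer Slc39a4 69.9 and 54.8 against 611 and 210. Apoc2, the cofactor of lipoprotein lipase, read 200.2 and 249 in the pools, 661 in tumour 1 and 2967 in tumour 2. In each of these 5 genes both tumours lay above both pools. The keratins Krt8 and Krt18 of simple epithelia read 218 and 208, and 208 and 225, in the pools, against 549 and 346, and 516 and 526, in the tumours.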
